A study of Mus musculus with 15 samples.

Results

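The 10 genes described here encode digestive enzymes of the pancreatic acinar cell: the trypsinogen genes Try4, Try5, Try10 and Prss2, the carboxypeptidase genes Cpa1 and Cpb1, the elastase genes Cela1 and Cela2a, the bile salt-activated lipase gene Cel and the pancreatic lipase gene Pnlip. All 10 were among the 55291 genes of the normalized-count tables and were also in a table of FPKM values (fragments scaled to transcript length and library size). Members were listed by name with earlier results of these data known, and Try5 was chosen by its log2 difference between DON and control cultures in these tables. Values of the members in DON cultures are therefore given as a description, with no test.

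The study asked how pancreatic ductal adenocarcinoma (PDAC) cells and tumors respond when use of glutamine (Gln) is blocked. HY19636 is a murine PDAC line with mutant p53, derived from mice in which Cre was driven by the acinar-lineage gene Ptf1a, and grown in DMEM with fetal bovine serum. All groups are of this line. In groups of 3, cultures were left as controls, given the Gln antagonist DON at 25 µM for 24 h, or kept for 24 h without Gln. Tumors were grown from the same line by injection into the pancreas of B6J mice aged 8 to 10 weeks. The mice received vehicle or DRP-104, which releases DON, at a dose of 3 mg per kg. Dosing ran for 2 cycles, each with 5 days of treatment and 2 days of rest, and 3 tumors a group were sequenced. The tumors sit in the host pancreas, so bulk RNA can hold host acinar and islet tissue, and fewer cells of a type cannot be told apart from less RNA per cell.

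Acinar cells make and store most digestive enzymes as inactive precursors. Trypsinogens are cut in the gut by enteropeptidase to trypsin, which then activates the other protease precursors, and in the pancreas the cathepsins B and L act on trypsinogen. In the mouse, the trypsinogen genes form a family of recent duplicates inside the T cell receptor beta locus. Acinar cells lose enzyme expression when they take on a duct-like state.

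Libraries held 25.2 to 48.2 M recovered gene reads in the cultures and 16.3 to 20.7 M in the tumors. All 8 genes of the duct cell list had reads in every group, though the list was far lower in DON and no Gln cultures than in controls, and the 10 islet genes were at 0 reads in every culture. Of the tumors, DRP-104 tumor 3 stood apart by a summed T cell list of 1390 normalized counts against 48.4 to 105 in the other 5. Vehicle tumor 3 stood apart by acinar genes, as described below.

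The sequences of the trypsinogen genes come first, since they decide what a read counted for Try5 can mean. Try5 (ENSMUSG00000036938) lies on the minus strand at chr6:41311233-41316841 in GRCm38, 5700 bases after the end of Try4 (chr6:41302269-41305532, plus strand). Both transcripts have 801 bases in 5 exons, with 741 coding bases that encode 246 residues. Compared base by base, Try4 had 97.4% of the coding bases of Try5 and differed at 19. Identity was 93.5% for Try10, 92.2% for Prss1, 91.6% for Gm10334, 91.5% for Prss3 and 90.3% for Prss2. The longest coding stretch that Try5 and Try4 share without a difference ran for 274 bases, from coding base 200 to 473. The 60 coding bases in which Try5 and Try4 differed most, coding bases 463 to 522 in exon 4, are printed 5′ to 3′ on the coding strand from the GENCODE M21 transcripts of GRCm38. Capitals mark bases that differ from Try5. The stretches lie at chr6:41311762-41311821 (Try5, minus strand), chr6:41304944-41305003 (Try4), chr6:41357338-41357397 (Try10) and chr6:41524461-41524520 (Prss2), the last 3 on the plus strand.
Try5: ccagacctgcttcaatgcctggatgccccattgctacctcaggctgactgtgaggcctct
Try4: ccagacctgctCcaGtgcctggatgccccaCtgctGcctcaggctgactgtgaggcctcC
Try10: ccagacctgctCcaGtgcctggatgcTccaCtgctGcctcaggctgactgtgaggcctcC
Prss2: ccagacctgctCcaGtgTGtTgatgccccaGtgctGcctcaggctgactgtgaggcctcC

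In this stretch Try4 differed from Try5 at 5 bases, Try10 at 6 and Prss2 at 8. Of all windows of 50 bases along the Try5 transcript, 46.1% were found in no other gene of the annotation, and the rest were shared with up to 8 genes of the family. The share rose to 62.2% for 75 bases, 74.4% for 100 and 80.8% for 150. At 100 and 150 bases Try4 was the only gene that shared any window. The read length and the treatment of reads that match several genes are not given in the sources used here, so some reads in the trypsinogen genes may have been split between them or dropped. A further overlap concerns Cela2a, where 305 of 1723 exonic bases (17.7%) are also exonic bases of Ctrc on the same strand.

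**Figure D1:**
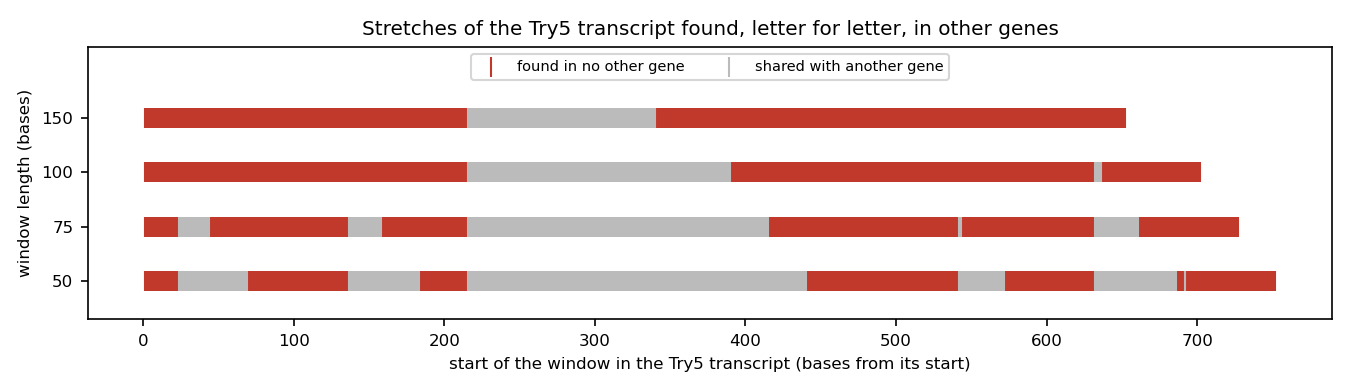
Each mark is a window of the Try5 transcript at its start position (bases from the transcript start), for window lengths of 50, 75, 100 and 150 bases. Red windows occur in no other gene and gray windows occur in at least 1, and gray is left mainly in the middle of the transcript at 100 and 150 bases.

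In DON cultures, Try5 was the digestive enzyme gene with nearly all of the reads, and 6 of the other 9 members had 0 reads. Try5 had 339, 212 and 411 normalized counts in the 3 DON libraries and 0, 2.5 and 3.9 in the 3 controls. These rest on 284, 230 and 489 reads against 0, 2 and 6. All DON libraries were far above all controls, with group means of 320.6 ± 100.3 and 2.13 ± 1.98 (SD, n = 3). The log2 difference, on the log2(value + 1) scale, was 6.91 (SE 0.53, limma). The ratio of the group means was 150, and it rests on 8 control reads.

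Try4, the gene closest to Try5 in sequence, had 0 reads in all 9 cultures, DON libraries included. Try10, Cpa1, Cpb1 and Cela2a also had 0 reads in all 9 cultures, which allows up to 3 reads a library. Pnlip had 1 read, in control library 3. Prss2, an abundant trypsinogen gene of the acinar cell, had 0, 1.85 and 1.68 normalized counts with DON and 1.26, 9.99 and 3.90 in the controls. Its groups overlapped, and no Prss2 value in culture rested on more than 8 reads. Of 8 trypsinogen paralogs outside the members, 2210010C04Rik had 5 reads in DON library 2 and the others had 0 in all cultures.

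Besides Try5 and Prss2, the members with reads in DON cultures were Cel and Cela1. Cel, which hydrolyzes cholesterol and lipid esters, had 16.7, 12.9 and 8.39 normalized counts with DON against 2.52, 5.0 and 0 in controls. The groups did not overlap, but the DON values rest on 14, 14 and 10 reads and the mean over 6 libraries was under the minimum of 10 set for tests. Cela1, elastase 1, had 14.3, 11.1 and 10.1 with DON and 51.6, 47.5 and 57.2 in controls. Every DON value of Cela1 was below every control value, with a log2 difference of -2.06 (SE 0.36). Over all genes, 68.1% of 13556 tested passed an adjusted p of 0.05 in this contrast (33.3% higher and 34.7% lower), and 71.9% did not overlap between the groups. With only Try5 and Cela1 past the minimum and the contrast used to choose the gene, nothing is read from the members' count.

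**Figure D2:**
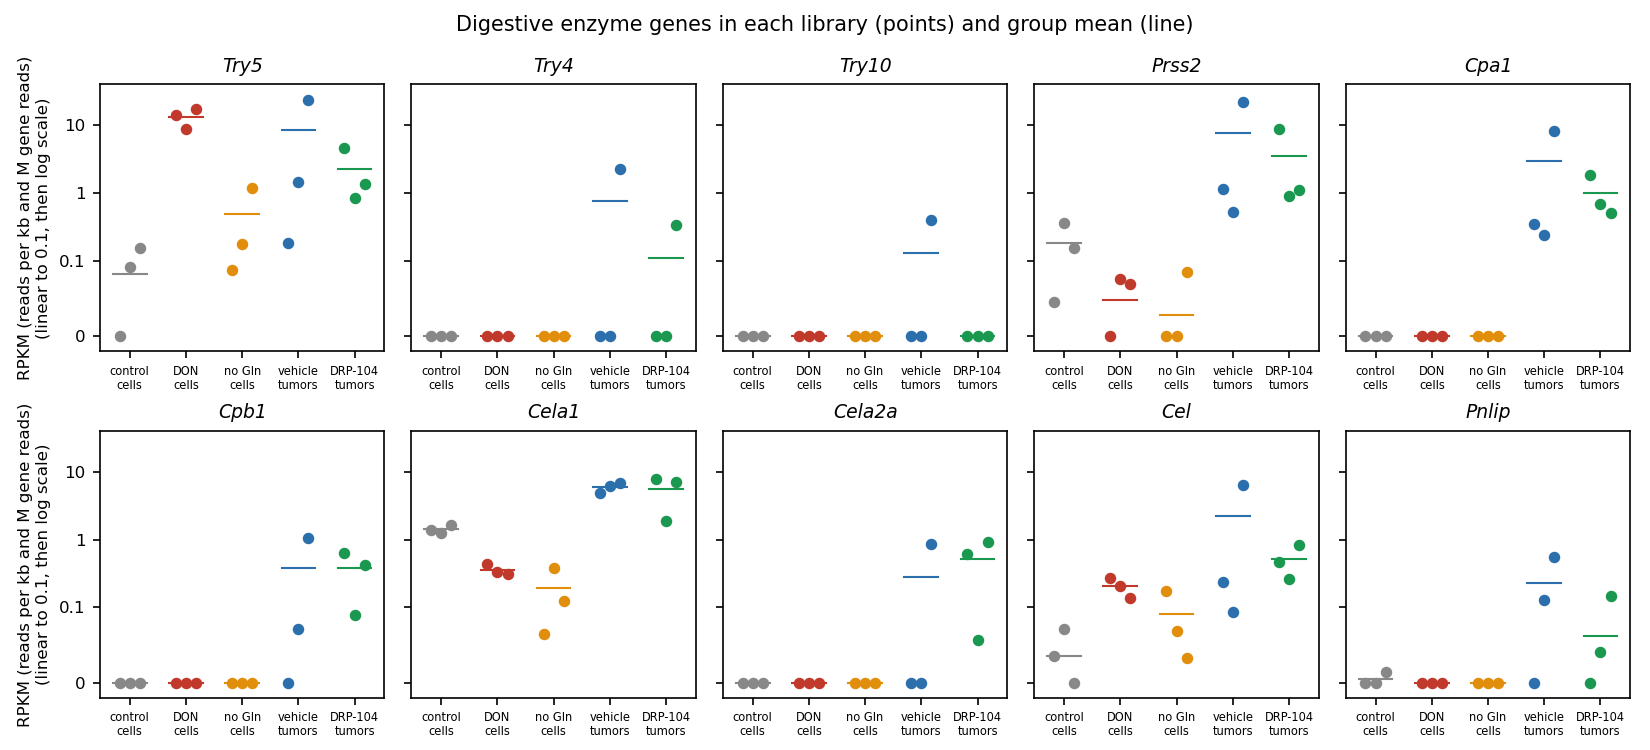
RPKM (reads per kilobase of gene length and per 1 M gene reads) for each member, by group, with points for the 3 libraries and a line for their mean; the axis is linear from 0 to 0.1 and logarithmic above. Try5 is the member that reached 8.83 to 17.2 in the DON cells, while Try4, Try10, Cpa1, Cpb1 and Cela2a sit at 0 in all cultures.

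Without Gln, Try5 did not reach the DON level in any library. It had 2.09, 4.13 and 28.0 normalized counts, from 2, 4 and 28 reads, beside 0, 2.36 and 3.76 in the same 3 control libraries scaled within that table. The no Gln values overlap those of the controls, and library 3 holds most of the reads. The mean over the 6 libraries was under 10, so Try5 was left out of the test; with no minimum its log2 difference was 1.62 (SE 0.88), with an adjusted p of 0.175 by limma. In the scaling of all 9 culture libraries together, Try5 averaged 315 with DON, 11.6 without Gln and 2.09 in controls. The lowest DON value there, 209, was above the highest no Gln value, 28.4.

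Cela1 was the only member with enough reads for a test without Gln, and it fell. It had 2.09, 12.4 and 4.0 normalized counts without Gln and 48.6, 44.8 and 55.1 in controls, and the groups did not overlap. The log2 difference was -3.09 (SE 0.53, adjusted p = 1.96e-04, limma over all genes), lower in 3 of 3 libraries. In this contrast 69.4% of 13390 genes passed the same threshold, 34.9% as lower, and 73.6% did not overlap, so 1 called member of 1 tested is not apart from the background. The comparisons with DON and without Gln share their control libraries. Cel had 10.4, 4.13 and 2.00 without Gln and overlapped its controls (2.37, 4.72 and 0), and Prss2 had 0, 0 and 2.00.

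Per length, the order of Try5 by group median was DON cells, vehicle tumors, DRP-104 tumors, no Gln cells and controls. DON cells had 14.1, 8.83 and 17.2 RPKM, computed from the recovered reads. DRP-104 tumors had 4.59, 0.84 and 1.35, and vehicle tumors 0.186, 1.45 and 23.6. No Gln cells had 0.0886, 0.176 and 1.21, and controls 0, 0.0917 and 0.156. The ranges of both tumor groups overlapped each other, and each overlapped that of the no Gln cells. The no Gln and control ranges overlapped too. Vehicle tumor 3 lay above all DON libraries, so the DON and vehicle tumor ranges overlapped, while all DON libraries lay above all DRP-104 tumors. Cultures and tumors were normalized in separate tables, and these levels were set side by side with no test.

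The make-up of the signal differed between DON cultures and tumors. Try5 made up 91.6%, 89.1% and 95.3% of the members' reads in the DON libraries. In DRP-104 tumors it made up 14.3%, 12.2% and 7.27%, and in vehicle tumors 1.99%, 12.4% and 24.4%. The share was 0%, 3.85% and 5.94% in controls, where Cela1 supplied most reads, and 14.3%, 20% and 77.8% of only 14, 20 and 36 reads without Gln. The DON range lies above every tumor and every other culture. Counting reads per kilobase gave 93.5% to 97.1% in DON cells and 2.74% to 32.7% in tumors. Percentages rest on 258 to 513 member reads in DON cells and 90 to 1522 in tumors, and reads without molecular identifiers are not independent molecules.

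Ctrb1, chymotrypsinogen B, was the most abundant of the 20 other acinar secretory genes in the tumors and was set beside Try5. In the 6 tumors it had 275 to 1167 reads for every 100 Try5 reads. In the 3 DON libraries it had 0 reads beside 1003 Try5 reads in all. Ctrb1 was as low in the other cultures, with 0, 0 and 2 reads in controls and 0 in each no Gln library. Try5 was chosen by its rise with DON, so low ratios to it in DON cultures are no further support. Prss2 had 37.5 to 633 reads per 100 Try5 reads in tumors, and 0, 0.870 and 0.409 in DON cultures. Cpa1 had 33.3 to 367 in tumors and 0 in DON cultures.

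**Figure D3:**
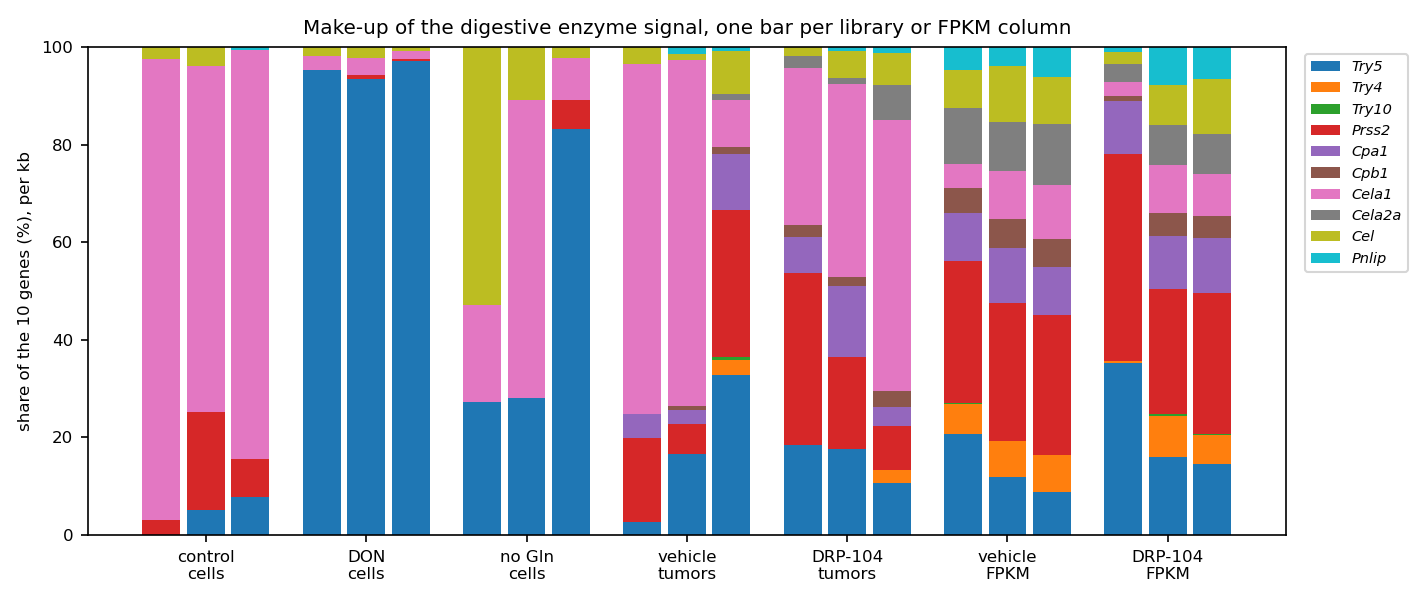
Share of each of the 10 genes in their summed level per kilobase (%), with a bar for each library or FPKM column. Try5 fills 93.5% to 97.1% of the bars of the DON cells, and the tumor bars are divided among Prss2, Cela1, Cpa1, Cel and others; the bars of the no Gln cells rest on 14 to 36 reads.

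Markers of other pancreatic cells were set beside this. Of the 20 other acinar secretory genes, 15 had 0 reads in all DON libraries, and the summed list was 7.16 to 21.2 normalized counts with DON against 19.5 to 23.9 in controls. Most of those reads were in Ctrl and Pla2g1b, which also had reads in controls. The amylase genes Amy2a1 and Amy2a5 were at 0 in all cultures and also in all 6 tumors of the normalized-count table, so they do not tell the groups apart. Amy1 had 4 reads with DON, 4 in controls and 18 without Gln. All 10 islet genes, insulin and glucagon included, had 0 reads in the 9 cultures. The duct cell list, like Cela1, was lower both with DON and without Gln, while Try5 without Gln overlapped its controls. The list summed to 46026 to 57130 normalized counts with DON against 307961 to 348176 in controls. Without Gln it summed to 69592 to 79437 against 297006 to 328877. With DON 6 of its 8 genes fell and 1 rose, and without Gln 7 fell, by limma over all genes. Of all genes tested, 34.7% were called lower and 33.3% higher with DON, and 34.9% lower without Gln. Krt19, a keratin of duct cells, had a log2 difference of -3.20 with DON (adjusted p = 7.41e-11, limma) and -2.02 without Gln (adjusted p = 9.73e-09, limma), and Epcam, an epithelial adhesion gene, -2.79 and -2.63. Their part in the values of Try5 and Cela1 was not tested. In the tumors, the other acinar secretory list summed to 165 to 881 with DRP-104 and 77.7 to 2166 with vehicle, and the islet list to 200 to 821 and 90.3 to 350.

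Genes that set the acinar state were mostly too low to test with DON. Of 6 genes (Ptf1a, Rbpjl, Bhlha15, Nr5a2, Gata4 and the cholecystokinin receptor Cckar), 2 had enough reads, and 1 of them passed the threshold. Over all genes tested with DON, 68.1% passed it. Bhlha15, a factor of secretory cells, had 16.8, 20.3 and 25.9 at the lowest, middle and highest with DON and 0, 6.50 and 17.5 in controls, with a log2 difference of 2.07 (SE 0.85, adjusted p = 0.0447, limma). Its values overlapped, and the call was lost by edgeR (adjusted p = 0.0798), by DESeq2 (adjusted p = 0.102) and without control library 1 (log2 difference 0.88, adjusted p = 0.175, limma). Gata4 was expressed at 2303 to 2619 with DON and 2512 to 3011 in controls, with a log2 difference of -0.15 (adjusted p = 0.20). Ptf1a and Cckar were at 0 in all cultures, and Rbpjl and Nr5a2 had at most 5.04 normalized counts.

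Of the genes that act on trypsin, the cathepsin genes and F2rl1, a receptor that trypsin cleaves, were expressed in the cells. Ctsl rose with DON by 0.71 on the log2 scale (adjusted p = 2.42e-05) and fell by 0.43 without Gln (adjusted p = 3.87e-04), both by limma. Ctsb differed by 0.22 with DON (adjusted p = 0.0583 by limma, 0.0420 by edgeR) and fell by 1.00 without Gln (adjusted p = 6.85e-07, limma). F2rl1 fell from 3441 ± 116 to 1373 ± 74.3 normalized counts with DON (SD, n = 3), with an adjusted p of 1.42e-08 by limma. Without Gln it fell by 0.74 on the log2 scale (adjusted p = 3.95e-06, limma). Tmprss15, which encodes enteropeptidase, and Spink1, a trypsin inhibitor, were at 0 in all cultures.

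Genes around Try5 on chromosome 6 did not share its level. Of 91 annotated genes within 500 kb, 82 had no read in any culture and 89 had fewer than 6 reads in the DON libraries combined. Besides Try5 with 1003 reads, Ephb6, a receptor gene, had 426 with DON, 1191 in controls and 160 without Gln. Trbc1 and Trbc2, T cell receptor segments of the same locus, had 2 reads each with DON and 10 and 44 in controls.

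**Figure D4:**
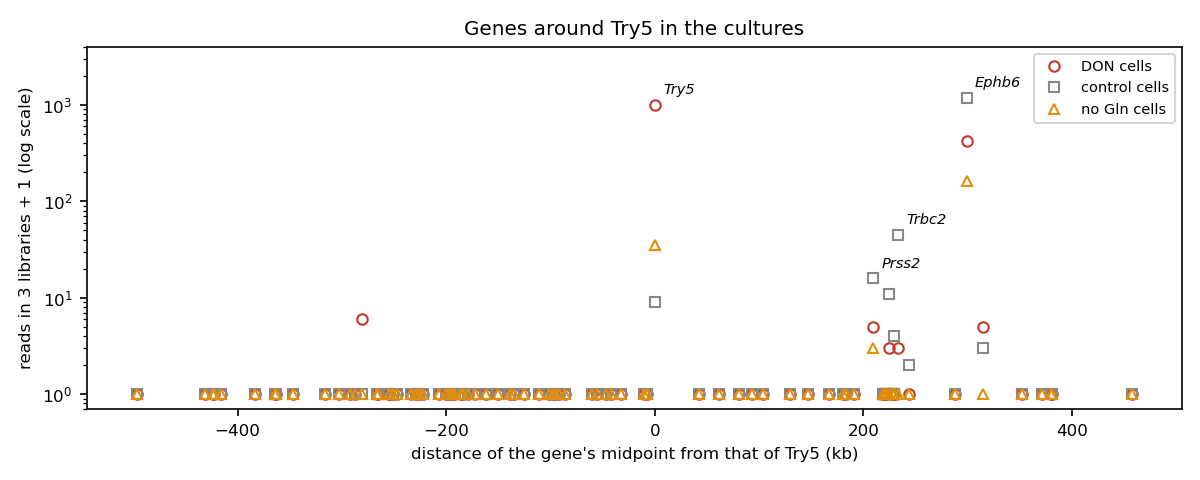
Reads summed over the 3 libraries of each culture group, plus 1 on a log axis, against the distance of each gene's midpoint from that of Try5 in kb. Try5 (1003 reads) and Ephb6 (426 reads) are the genes with 6 or more reads in DON cells.

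By likeness of pattern over the 9 culture libraries, the genes closest to Try5 were Fbxl4 (Pearson r = 0.986 on log2 values), Macrod1 (0.984), Pogk (0.980), Gmcl1 (0.975) and Chmp1b (0.974), of 13512 genes compared. The points share libraries and fall into 3 groups, and 394 genes had r above 0.9. These genes moved far less than Try5: Fbxl4 averaged 455 normalized counts with DON, 264 without Gln and 247 in controls.

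In the tumors, the members varied more within a group than between vehicle and DRP-104. The summed members came to 135, 180 and 1465 normalized counts in vehicle tumors and 510, 103.8 and 270 in DRP-104 tumors. Vehicle tumor 3 was highest and DRP-104 tumor 2 lowest, and the groups overlapped. Of 15454 genes tested, 0% passed an adjusted p of 0.05 by limma, with 775 at an unadjusted p under 0.05. Across the same genes edgeR called 0 and DESeq2 called 56 (0.362%), and the groups did not overlap for 10.6%. Of the 10 members, 6 passed the minimum of 10, and 0 of the 6 were called by limma, edgeR or DESeq2, with 0 at an unadjusted p under 0.05 by limma. Their median log2 difference, DRP-104 minus vehicle, was -0.20 beside -0.01 over all genes. By edgeR and by DESeq2 on the recovered reads it was -1.28.

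Try5 itself had 2.68, 22.3 and 358 normalized counts in vehicle tumors and 72.7, 12.7 and 19.6 in DRP-104 tumors. Both the lowest and the highest value were in vehicle tumors. The log2 difference was -0.19 (95% interval -3.64 to 3.26, adjusted p = 0.991, limma). Prss2 had 16.98, 8.35 and 336 with vehicle and 140, 13.8 and 16.7 with DRP-104, and its log2 difference was -0.20 (SE 1.39). The intervals are wide enough to hold changes of several-fold in either direction.

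The carboxypeptidase, elastase and lipase genes gave the same picture with some differences in make-up. Cpa1 had 9.83, 7.42 and 246 with vehicle and 57.8, 20.8 and 14.7 with DRP-104. Cpb1 had 0, 3.71 and 54.9 against 34.2, 4.61 and 20.6, with a log2 difference of 1.34 (SE 1.46). Cel had 8.94, 3.71 and 251 against 19.3, 10.4 and 31.4. Vehicle tumor 3 held the highest value of each of these 3 genes.

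Cela1 was the least variable member, with 96.5, 131 and 144 in vehicle tumors and 173, 39.2 and 140 in DRP-104 tumors. Its log2 difference was -0.31 (SE 0.54, adjusted p = 0.953, limma). Of the members, it was also the gene with the most reads in control cultures, at 1.27 to 1.66 RPKM beside 1.89 to 7.94 in the tumors. The other 4 members were under the minimum of 10, and with no minimum 0 of the 10 members were called by limma. Cela2a had 0, 0 and 17.3 against 12.8, 1.15 and 17.7, and Pnlip 0, 3.71 and 15.4 against 0, 1.15 and 3.92. Try4 had reads in vehicle tumor 3 (36) and DRP-104 tumor 3 (5), and Try10 in vehicle tumor 3 (7).

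The sign of this median rested on single tumors. Without vehicle tumor 3, the median log2 difference of the 6 members was 1.51, and that of Try5 was 1.57 (adjusted p = 0.999, limma). It was 0.33 without DRP-104 tumor 2 and 0.14 without DRP-104 tumor 3, the tumor high in T cell genes. Without DRP-104 tumor 1, vehicle tumor 1 or vehicle tumor 2 it lay between -0.75 and -0.66. Vehicle tumor 3 was also highest for the other acinar secretory list, at 2166 normalized counts, with Ctrb1 at 1784, while DRP-104 tumor 1 was highest for the islet list, at 821. Their part in the members' values was not tested.

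The place of DRP-104 tumor 1 among the tumors differed between acinar genes. It was second for Ctrb1 (617 normalized counts), Prss2 (140) and Try5 (72.7), and had 0 reads for Pnlip, Try4 and the colipase gene Clps. Vehicle tumor 3 had 16, 36 and 78 reads for the same genes. Depth limits this, since 0 reads in a library allows up to 3. Try4 also had 0 reads in DRP-104 tumor 2 and in vehicle tumors 1 and 2.

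The columns of the FPKM table give the group but could not be matched to these tumors, and there a DRP-104 column was highest. No column stood apart by its T cell list as DRP-104 tumor 3 did. That list summed to 1.53 to 4.67 FPKM with DRP-104 and 3.23 to 5.26 FPKM with vehicle. Whether the columns come from the same tumors is therefore not known. Try5 had 104.2, 15.2 and 7.61 FPKM in the vehicle columns and 67.5, 271 and 47.9 in the DRP-104 columns. Prss2 had 147, 36.3 and 24.8 against 81.2, 436 and 95.1, and Cpa1 49.8, 14.4 and 8.55 against 21.1, 184 and 37.2. The members summed to 504, 128 and 86.6 FPKM with vehicle and 192, 1691 and 329 with DRP-104. The second DRP-104 column was highest for every member.

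All 10 members passed the minimum of 0.5 FPKM, and 0 of 10 were called, beside 0% of 14212 genes by limma (1081 at an unadjusted p under 0.05). All 10 log2 differences were above 0, with a median of 0.91 beside -0.02 over all genes. Try5 had the greatest of them, 1.98 (95% interval -0.32 to 4.29, adjusted p = 0.629, limma). Without the second DRP-104 column the median over the 9 members left past the minimum was -0.28. The islet list, at 14.3 to 234 FPKM with vehicle and 327 to 1219 with DRP-104, did not overlap between groups, and 19.3% of genes in this table did not overlap. The part of islet tissue in the members' values was not tested.

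The 2 tables, which may not hold the same tumors, also differed in how much they gave to near-identical genes. Try4 had 29.6 to 86.7 FPKM per 100 FPKM of Try5 in the vehicle columns and 1.28 to 52.2 in the DRP-104 columns. In the normalized-count table Try4 had 0 to 25.0 reads per 100 reads of Try5 in the 6 tumors, and 0 reads in 4 of them. The first DRP-104 column had 0.862 FPKM of Try4 and 4.81 of Cel beside 67.5 of Try5 and 485 of Ctrb1, unlike the other 5.

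**Figure D5:**
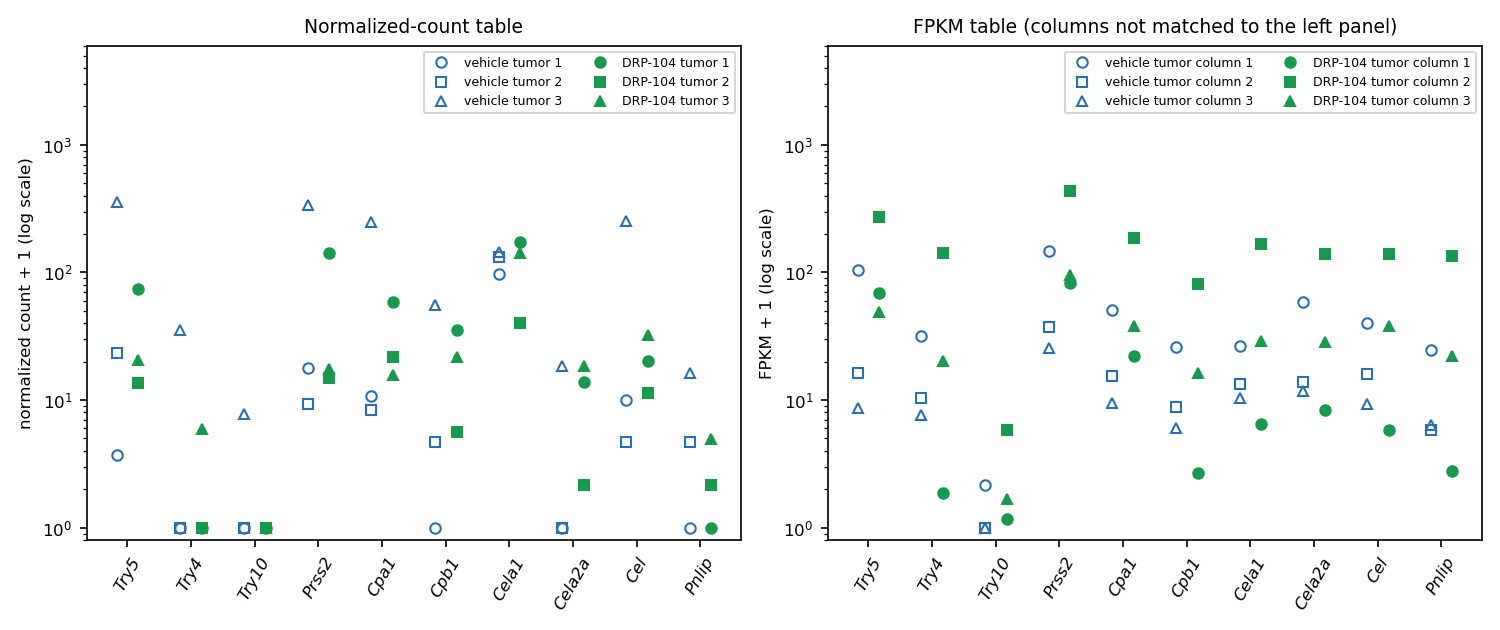
Members in vehicle (open blue) and DRP-104 (filled green) tumors, as normalized count + 1 on the left and FPKM + 1 on the right, both on log axes; shapes mark tumors or columns 1, 2 and 3, which are not matched between panels. Vehicle tumor 3 is highest for 8 members on the left (Try5 at 358), and the second DRP-104 column for all 10 on the right (Try5 at 271 FPKM).

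By likeness, the genes closest to the summed members over the 6 tumors were Dbnl (Pearson r = 0.992), Zbtb45 (0.991), Babam1 (0.987), Cdk4 (0.985) and Cox8a (0.981). Over the 6 FPKM columns they were Mex3a (0.997), Epha3 (0.993), Reg3g (0.992), Reg2 (0.990) and Reg3a (0.981), of which the 3 Reg genes encode secreted proteins of the pancreas and gut. No gene was in both sets. In both cases 1 of the 6 points, vehicle tumor 3 or the second DRP-104 column, lay far above the rest.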

How the data were processed

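Bulk RNA-seq of 15 samples in 5 groups of 3 was used. For the authors, Novogene did the alignment (HISAT2) and differential expression (DESeq2). The submitters' processing notes also list CASAVA, STAR 2.5 and GRCm39, but gene coordinates in the FPKM table match GRCm38. The counting tool, strand setting and read length are not given in the sources used here. The deposited signal in 3 comparison tables is gene coverage as counts divided by 1 size factor per sample. The authors' FPKM table is scaled to gene length and library size, and its tumor columns are matched to groups only. Tables of identical bytes, FPKM group means and the authors' fold changes and p-values were not used. Control columns in the culture tables carry a vehicle name and were taken as the control cultures, since the tables pair the control name with a cell treatment and the tumor table's vehicle columns hold other values.

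Whole reads were recovered by dividing by the worth of 1 read (tolerance 0.0051, at least 99.95% of values whole, zeros included). Among nonzero values the lowest share was 99.87%, in control library 1 as scaled with the no Gln cultures. The share of even counts from 1 to 20 was 69.6% to 72.7% in cultures and 41.9% to 46.6% in tumors. With this excess in cultures only, a culture read and a tumor read may not stand for the same number of fragments. Low culture read numbers may then rest on fewer fragments than reads, which was not tested. Genes with a mean of at least 10 normalized counts over the libraries (0.5 FPKM) were tested by limma 3.58.1 (R 4.3.3) on log2(value + 1), with Benjamini-Hochberg adjustment over all genes. The fit was tested on simulated data. Alternatives used edgeR 4.0.16 and DESeq2 1.42.0 on the recovered reads. Share figures and levels per kilobase used the gene lengths of the FPKM table. The labels only number replicates, so p-values measure the spread between these samples. Members and gene lists were chosen with earlier results of these data known. All 10 members were named, list genes were named for their level or a passed threshold, and the 5 genes most like Try5 or the summed members by Pearson r were named. Sequences came from GENCODE M21 (GRCm38). The intervals come from the limma fit and, like its p-values, measure the spread between these samples. The limit of 3 reads covers counting error only.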

Additional observations from a re-analysis of the deposited data

How the results depend on the processing

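The Try5 difference in DON cells stayed above 0 in all 13 alternatives, but this difference chose the gene, so its sign is no further support. With a pseudocount of 10 the difference was 4.73 on the log2 scale, since a larger pseudocount shrinks differences from low values. Leaving out single libraries gave 6.23 to 7.37. Without Gln the Try5 difference ran from 0.66 to 2.28 when single libraries were left out, the lowest without library 3; edgeR and DESeq2 gave no value, because the mean was under the minimum. Cela1 stayed the 1 member called without Gln, and 0 members were called in tumors, under every alternative run. The members' median difference in tumors ranged from -0.75 to 1.51 over left-out libraries and was -1.28 by edgeR and by DESeq2. In the FPKM table, whose columns may come from other tumors, the median was 0.91. Leaving out single columns there, an alternative chosen after seeing the data, gave -0.28 to 2.00. Per kilobase, the median share of Try5 was 95.3% in DON cells and 17.6% in DRP-104 tumors. Same-numbered samples did not deviate together (correlations -0.04 to 0.05 with DON, -0.13 to 0.13 without Gln and -0.46 to 0.05 in tumors), so the numbers were not taken as pairs. With the replicate number as a block the Try5 difference with DON was 6.91, the count of members called stayed at 1 without Gln and 0 in tumors, and the tumor median stayed at -0.20. Try4, Try10, Cela2a and Pnlip had means under 10 in the tumor normalized-count table and were tested there only with no minimum, where 0 of 10 members were called. Depth limits the values that rest on a few reads, such as Try5 in controls (8 reads).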
